A study of Mus musculus with 4 samples.

Results

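The epidermal growth factor (EGF)-like ligands and the ERBB receptors that they bind were followed in mouse granulosa cells (GCs), the somatic cells around the oocyte. The 10 genes were the ligands Areg, Ereg, Btc, Hbegf, Tgfa and Nrg1 and the receptors Egfr, Erbb2, Erbb3 and Erbb4. They were taken by Ensembl identifier from a count table of 55385 genes, by name and not by a threshold on a measured value. All 10 were found, and all 10 passed the filter on low counts.

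Bulk RNA sequencing had been done on 4 GC libraries, 2 of them from preantral follicles that had neurotrophin-4 (NT-4) in the medium (NT4 group) and 2 from follicles that had not (Control group). The follicles came from ovaries of Kunming mice aged 12 to 14 days and were cultured for 6 days in medium that held follicle-stimulating hormone (FSH) in both groups. The cells were those left after the oocyte had been removed, and the study names them GCs. They came from a cultured follicle and not from an ovulating one. NT-4 was given at the single dose that the study chose after a dose test, and the labels carry no dose. By the study's description, the libraries of a group came from independent experiments, and nothing says which animals went into each.

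EGF-like ligands are made as membrane-anchored precursors that metalloproteases cut to release the active peptide. The peptide brings ERBB receptors together in pairs and starts the RAS-RAF-MEK-ERK and phosphoinositide kinase cascades, while ERBB2 binds no known ligand and serves as a partner of the other receptors. In the ovary, the surge of luteinizing hormone (LH) induces amphiregulin, epiregulin and betacellulin in GCs of the large follicle, and these ligands act through EGFR on cumulus cells to start their expansion and the resumption of meiosis in the oocyte.

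Libraries held 49520092 to 78704020 counts, and at about 4 counts per read pair the depth was between 12380023 and 19676005 read pairs. Levels are given as CPM, the counts of a gene scaled to a library total that was adjusted by TMM, and a count of 0 allows up to 3 read pairs, or 0.152 to 0.242 CPM depending on the library. The label of the cells was checked against 10 granulosa markers, whose summed level was 9350 to 13900 CPM in the 4 libraries. Most of that sum was Inha, at 5820 to 8870 CPM. Amh of that list differed widely within groups, at 299 and 151 CPM in Control and 391 and 91.5 CPM in NT4. Over 6 markers of theca and stroma, the cells outside the granulosa layer, the summed level was 699 to 1030 CPM. The libraries thus did not hold transcripts of granulosa markers alone. The summed level of 8 oocyte markers was 67.2 to 96.3 CPM, and that of 6 macrophage markers was 1.03 to 2.15 CPM. For 6 markers of the ovarian surface epithelium it was 0.542 to 2.11 CPM, most of it Cdh1 at 0.488 to 1.79 CPM. Krt19 and Upk1b of that list were at 0 in each of the 4 libraries, and Krt7, Upk3b and Msln at 0.298 CPM or less. Over 5 endothelium markers the summed level was 19.3 to 28.3 CPM, most of it Cdh5 at 16.4 to 25.4 CPM. Tek of that list stood at 0.159 and 0.190 CPM in Control and 0.946 and 0.441 CPM in NT4, on 8 to 59 counts, and met the fold and p criterion of the study's methods (log2 fold change 1.97, SE 0.711, adjusted p 0.9999 by the edgeR quasi-likelihood test). Kdr went the other way, at 1.1 and 0.597 CPM in Control and 0.497 and 0 CPM in NT4 (log2 fold change −1.779, SE 1.537), and the list held 3 positive and 2 negative log2 fold changes.

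The first question was whether NT-4 in the culture medium changed the transcript level of any of these ligands or receptors. By the quasi-likelihood test of edgeR, none of the 10 genes passed the adjusted threshold of 0.05, against 0.0% of the 19259 genes tested, and the smallest adjusted p over all genes was 0.13. At an unadjusted p under 0.05 the count was also 0 of 10, against 1.99% of all genes tested. No member met the criterion of the study's methods, which asks for a fold beyond 2 or 0.5 together with p under 0.05 before adjustment, against 1.08% of all genes tested. The Wald test of DESeq2 called 65 genes and the exact test of edgeR called 59 genes at an adjusted p of 0.05, and none of the 10 was among them. A permutation of 2 libraries against 2 cannot give a p below 0.333.

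The direction of the differences was split evenly. Of the 10 genes, 5 had a positive and 5 a negative log2 fold change (NT4 over Control), and the median was 0.028, beside 0.004 over all genes tested, of which 51.0% were positive. With 1 library left out the median of the 10 ran from −0.105 (without NT4 1) to 0.223 (without NT4 2). The split was 3 positive and 7 negative without Control 1 or without NT4 1. It was 6 and 4 without Control 2, and 8 and 2 without NT4 2. The NT4 libraries did not overlap the Control libraries in 3 of the 10 genes, against 26.0% of all genes tested. These 3 were Ereg, which was higher in NT4 (13.4% of all genes tested), and Egfr and Erbb2, which were lower (12.7% of all genes tested). In these bulk libraries, fewer cells of a type and less RNA per cell cannot be told apart.

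**Figure D1:**
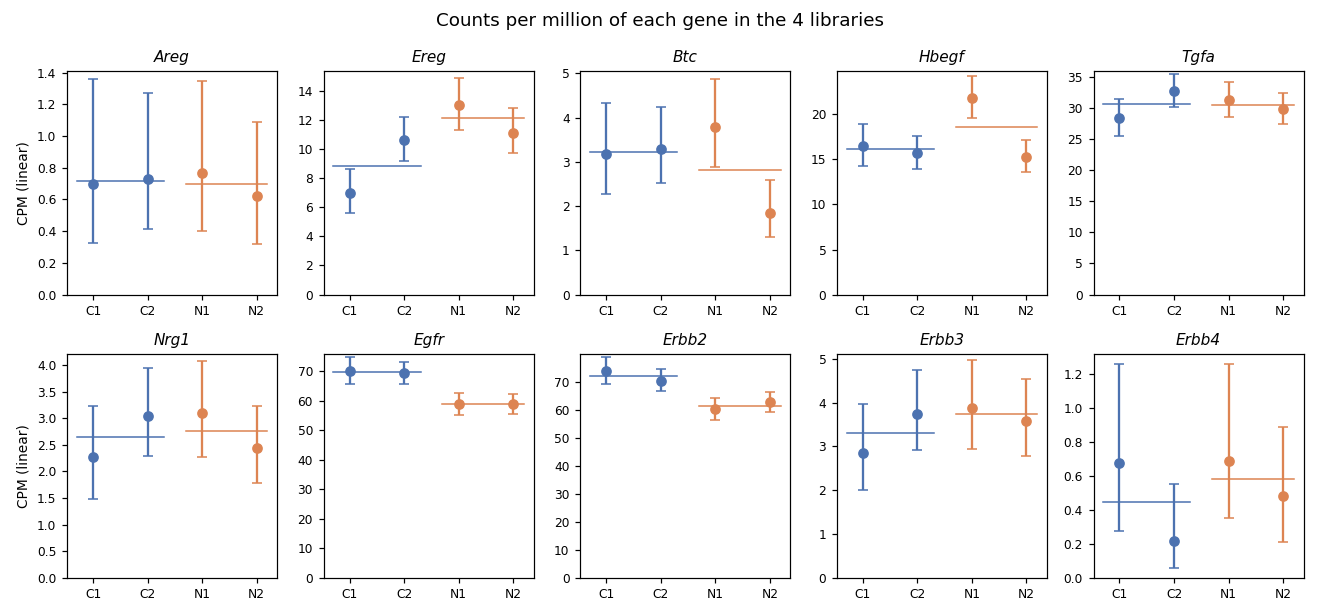
CPM (linear axes that start at 0) of each of the 10 genes in Control 1 and 2 (C1 and C2, blue) and NT4 1 and 2 (N1 and N2, orange). Points are libraries, error bars are 95% exact Poisson intervals on the estimated read pairs, which cover counting error only, and horizontal lines are group means. The groups are apart in Ereg, Egfr and Erbb2, and the Control intervals of Ereg reach from 5.62 to 12.2 CPM.

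Among the receptors, EGFR is the receptor of amphiregulin, epiregulin, betacellulin, HB-EGF and TGF-alpha. Egfr (ENSMUSG00000020122) is a protein-coding gene on the plus strand of GRCm38 at chr11:16752203-16918158. It stood at 70.2 CPM in Control 1, 69.3 CPM in Control 2, 58.8 CPM in NT4 1 and 58.8 CPM in NT4 2. The NT4 libraries were both lower than the Control libraries, and the libraries within each group were close to each other. Means were 69.7 ± 0.61 CPM over the Control and 58.8 ± 0.00387 CPM over the NT4 libraries (SD, n = 2 each). The log2 fold change was −0.245 with a standard error (SE) of 0.117 and a 95% interval from −0.539 to 0.049, which is a fold of 0.844 (0.688 to 1.03). This was the smallest unadjusted p among the 10 genes, at 0.0859, with an adjusted p of 0.9999 by the edgeR quasi-likelihood test.

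The counting error of Egfr is given next, and it does not cover the spread between separate libraries. Egfr rested on an estimated 880, 1278, 917 and 1134 read pairs in Control 1, Control 2, NT4 1 and NT4 2. The 95% exact Poisson intervals were 65.6 to 74.9 CPM in Control 1 and 65.6 to 73.2 CPM in Control 2. In NT4 1 and NT4 2 they were 55.1 to 62.8 CPM and 55.5 to 62.4 CPM, so the intervals of the groups did not meet. The mean difference between libraries of the same group was 0.009 on the log2 scale, which 0.12% of 18265 genes matched or undercut, against a median of 0.286. The libraries of a group were thus closer than the width of their own Poisson intervals, so this closeness is no measure of the replicate spread of Egfr.

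Erbb2 (ENSMUSG00000062312), the ligandless partner receptor, lies on the plus strand at chr11:98412470-98437716 and shares 9 exon bases with Mien1 on the other strand. Its level was 73.8 CPM in Control 1, 70.3 CPM in Control 2, 60.1 CPM in NT4 1 and 62.8 CPM in NT4 2. As with Egfr, both NT4 libraries were the lower ones. Means and SDs over the 2 libraries of a group were 72.1 ± 2.44 CPM for Control and 61.4 ± 1.94 CPM for NT4. The log2 fold change was −0.23 (SE 0.119, 95% interval −0.53 to 0.07), a fold of 0.853, with an unadjusted p of 0.108 and an adjusted p of 0.9999 by the edgeR quasi-likelihood test. The exact Poisson intervals of the NT4 libraries ended at 64.0 and 66.4 CPM, and those of the Control libraries began at 69.1 and 66.6 CPM. The mean difference within groups was 0.067 on the log2 scale, which 6.75% of 18265 genes matched or undercut.

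The ratio of Egfr CPM to Erbb2 CPM overlapped between the groups, at 0.951 and 0.985 in the Control libraries and 0.979 and 0.937 in the NT4 libraries. The promoters of both receptors are shown as a description, and were picked after these levels were seen. A link between the promoter letters and the levels was not tested. Both sequences are the 250 bases before the RefSeq start of the gene, read 5′ to 3′ on the plus strand of GRCm38.p6, at chr11:16751953-16752202 for Egfr and chr11:98412234-98412483 for Erbb2. Capitals mark a GC box, which is GGGCGG on either strand and so CCGCCC on the other.
Egfr promoter: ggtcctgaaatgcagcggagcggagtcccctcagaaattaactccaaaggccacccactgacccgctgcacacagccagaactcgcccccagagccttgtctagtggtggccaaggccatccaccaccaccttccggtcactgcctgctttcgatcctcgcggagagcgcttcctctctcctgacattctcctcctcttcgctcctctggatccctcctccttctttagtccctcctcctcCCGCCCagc
Erbb2 promoter: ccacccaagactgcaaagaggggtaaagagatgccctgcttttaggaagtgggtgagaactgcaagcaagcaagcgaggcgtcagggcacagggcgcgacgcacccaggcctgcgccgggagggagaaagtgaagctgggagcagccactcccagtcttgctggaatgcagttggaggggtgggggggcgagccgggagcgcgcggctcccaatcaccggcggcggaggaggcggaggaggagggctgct
The Egfr window held 1 GC box, which began 9 bases before the start, and the Erbb2 window held none, while 32.7% of 32817 promoters of this length held at least 1. Neither window held TATAAA on either strand, a match found in 12.4% of promoters. The share of G and C was 60.8% in the Egfr window and 66.0% in the Erbb2 window, beside a median of 52.4% over all promoters. A match to these letters describes the window and is not evidence of a bound site.

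Erbb3 (ENSMUSG00000018166, chr10:128567523-128589652, minus strand) encodes a neuregulin receptor with little kinase activity of its own. It was at 2.85 CPM in Control 1, 3.74 CPM in Control 2, 3.88 CPM in NT4 1 and 3.58 CPM in NT4 2, so the groups overlapped. A log2 fold change of 0.177 (SE 0.27, 95% interval −0.504 to 0.858) was fitted.

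Erbb4 (ENSMUSG00000062209, chr1:68032186-69108059, minus strand), a receptor of neuregulins that also binds betacellulin, epiregulin and HB-EGF, was near the limit of detection. An estimated 8 and 4 read pairs stood behind it in the Control libraries, and 11 and 9 in the NT4 libraries. The levels from its counts were 0.677, 0.217, 0.690 and 0.480 CPM in the same order of libraries, and the groups overlapped. The interval of its log2 fold change ran from −1.473 to 2.272, so neither a lower nor a more than doubled level of Erbb4 in NT4 could be told from no difference at this depth.

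Among the ligands, amphiregulin is the one whose induction by LH is best known in the follicle. Areg (ENSMUSG00000029378) lies on the plus strand at chr5:91139599-91148432. It was scarce in these libraries, with counts of 35 and 54 in the Control libraries and 48 and 48 in the NT4 libraries, or about 9 to 14 read pairs. The levels were 0.697, 0.732, 0.770 and 0.623 CPM, and the NT4 libraries lay on either side of the Control pair. Its log2 fold change of −0.039 (SE 0.464) came with a 95% interval from −1.21 to 1.131, which leaves room for a change of more than 2-fold either way.

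The cyclic AMP response element (CRE), TGACGTCA, reads the same on both strands and is bound by the factor CREB. The Areg promoter is shown because a full CRE stood in it. The window is chr5:91139349-91139598 on the plus strand of GRCm38.p6, from RefSeq, and capitals mark in order the CRE, a GC box and TATAAA.
Areg promoter: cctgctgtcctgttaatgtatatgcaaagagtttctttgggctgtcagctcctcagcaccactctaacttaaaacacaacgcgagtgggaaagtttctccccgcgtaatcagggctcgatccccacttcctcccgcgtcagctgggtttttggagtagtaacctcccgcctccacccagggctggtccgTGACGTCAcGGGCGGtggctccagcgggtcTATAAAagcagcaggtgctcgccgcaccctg
The CRE began 61 bases, the GC box 52 bases and the TATAAA 31 bases before the start. A full CRE was present in 1.55% of the 32817 promoters. Among the 6 of the 10 genes whose promoter was used, Areg was the single one with a full CRE in this window, the others being Btc, Tgfa, Egfr, Erbb2 and Erbb4.

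Epiregulin, which binds EGFR and ERBB4, is likewise induced by LH as background. Ereg (ENSMUSG00000029377, chr5:91074622-91093646, plus strand) had counts of 350 and 784 in the Control libraries and 811 and 859 in the NT4 libraries. The levels were 6.97, 10.6, 13.0 and 11.1 CPM, and both NT4 libraries lay above both Control libraries. Control 1 stood lowest by far, and Control 2 was within 0.068 on the log2 scale of NT4 2. The Control mean was 8.8 ± 2.59 CPM and the NT4 mean 12.1 ± 1.32 CPM (SD, n = 2 each). On the log2 scale the NT4 group was higher by 0.454 (SE 0.258, 95% interval −0.196 to 1.104), a fold of 1.37, and the adjusted p was 0.9999 by the edgeR quasi-likelihood test. Without Control 1 the log2 fold change was 0.179, and without Control 2 it was 0.797 with an unadjusted p of 0.0381, the single value under 0.05 that any of the 10 genes reached in the alternatives. Ereg shares 141 exon bases, 3.4% of its exon length, with the antisense gene Gm19610, whose counts of 8 to 19 are small beside it.

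Markers of theca and stroma, the cells outside the granulosa layer, were measured beside these values, since both NT4 libraries held more of their summed transcripts. As the list is shown for its higher sums, the shares that follow describe it and are no separate support. All 6 had a positive log2 fold change, against 51.0% of all genes tested, with a median of 0.388. Without Control 1 or without NT4 2 the split was 5 positive and 1 negative. In 4 of 6, both NT4 libraries were above both Control libraries, against 13.4% of all genes tested. Of these, Col1a1 was barely apart, at 158 and 157 CPM in Control and 257 and 161 CPM in NT4. Their summed level was 699 and 709 CPM in the Control libraries and 1030 and 817 CPM in the NT4 libraries. Dcn, a stromal matrix proteoglycan, stood at 52.6, 47.6, 64.2 and 67.1 CPM in Control 1, Control 2, NT4 1 and NT4 2. Cyp17a1, the theca enzyme of androgen synthesis, stood at 72.2, 134, 134 and 173 CPM. Dcn alone of the 6 passed an unadjusted p of 0.05 (1.99% of all genes tested), and none of the 6 passed an adjusted p of 0.05 by the edgeR quasi-likelihood test. Insl3 in this list shares 64.8% of its exon length with Jak3 on the same strand, so its counts are uncertain. The part of these cells in the values of Ereg, Egfr and Erbb2 was not tested.

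Btc (ENSMUSG00000082361, chr5:91357261-91402994, minus strand) encodes betacellulin. It was at 3.17 CPM in Control 1, 3.30 CPM in Control 2, 3.79 CPM in NT4 1 and 1.84 CPM in NT4 2. The Control libraries were alike, while the NT4 libraries held both the highest and the lowest value. Its fitted log2 fold change was −0.202 (SE 0.404, 95% interval −1.221 to 0.817). It was 0.227 without NT4 2 and −0.817 without NT4 1.

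Hbegf (ENSMUSG00000024486, chr18:36504927-36515805, minus strand) encodes heparin-binding EGF-like growth factor. It stood at 16.5 CPM in Control 1, 15.7 CPM in Control 2, 21.8 CPM in NT4 1 and 15.3 CPM in NT4 2. NT4 1 was the single high library, and the groups overlapped. The log2 fold change of 0.205 (SE 0.218, 95% interval −0.344 to 0.754) was −0.079 without NT4 1.

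Tgfa (ENSMUSG00000029999, chr6:86195223-86275719, plus strand) encodes transforming growth factor alpha. Its level was 28.4 CPM in Control 1, 32.7 CPM in Control 2, 31.3 CPM in NT4 1 and 29.8 CPM in NT4 2. The NT4 values lay between the Control values. On the log2 scale the fitted fold change was −0.001 (SE 0.152), and its 95% interval from −0.384 to 0.383 was the narrowest among the ligands.

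Nrg1 (ENSMUSG00000062991, chr8:31814551-32884029, minus strand) encodes neuregulin 1, the one ligand of the 6 that binds ERBB3 and ERBB4 and not EGFR. It stood at 2.27 CPM in Control 1, 3.04 CPM in Control 2, 3.10 CPM in NT4 1 and 2.44 CPM in NT4 2. Each group held a lower and a higher library, and the groups overlapped. Its fitted log2 fold change was 0.057 (SE 0.311, 95% interval −0.727 to 0.842).

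**Figure D2:**
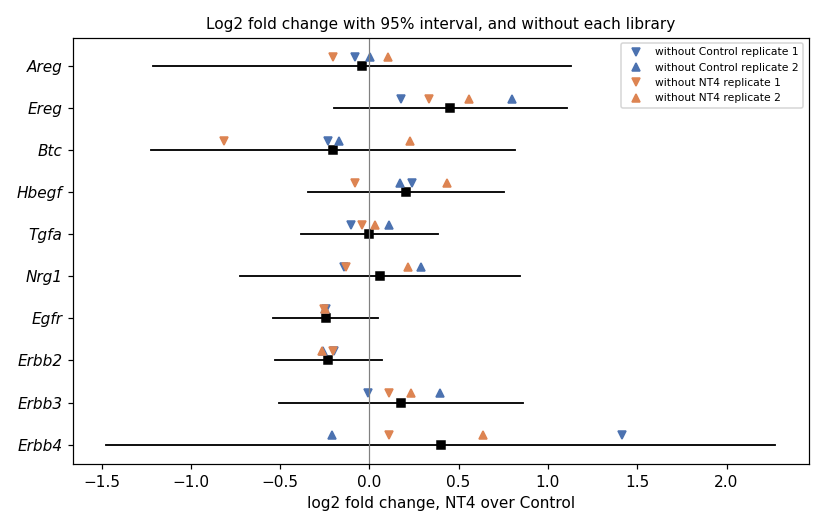
Log2 fold change of NT4 over Control for each of the 10 genes (black squares, lines are 95% intervals of the edgeR quasi-likelihood fit) and the values after leaving out 1 library (triangles, blue for a Control and orange for an NT4 library, pointing down for replicate 1 and up for replicate 2). Every interval crosses 0, the triangles of Egfr lie between −0.252 and −0.241, and those of Erbb4 spread from −0.209 to 1.417.

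The libraries were next compared within replicate number, since the labels number each group 1 and 2. NT4 minus Control had the same sign in both numbers for 4 of the 10 genes, against 49.3% of the 18265 genes with counts in all 4 libraries. For Egfr the log2 differences were −0.254 in number 1 and −0.236 in number 2. For Erbb2 they were −0.296 and −0.163, and for Ereg they were 0.900 and 0.068. Since the groups of Egfr, Erbb2 and Ereg did not overlap, their shared sign was fixed under any pairing and adds nothing to that count. The Egfr difference was similar in each number, as its libraries were close within groups. Nearly the whole difference of Ereg lay in number 1. The other gene with a shared sign was Erbb4, at 0.026 and 1.146 on very few reads. Btc was at 0.257 in number 1 and −0.839 in number 2, the widest opposed pair.

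**Figure D3:**
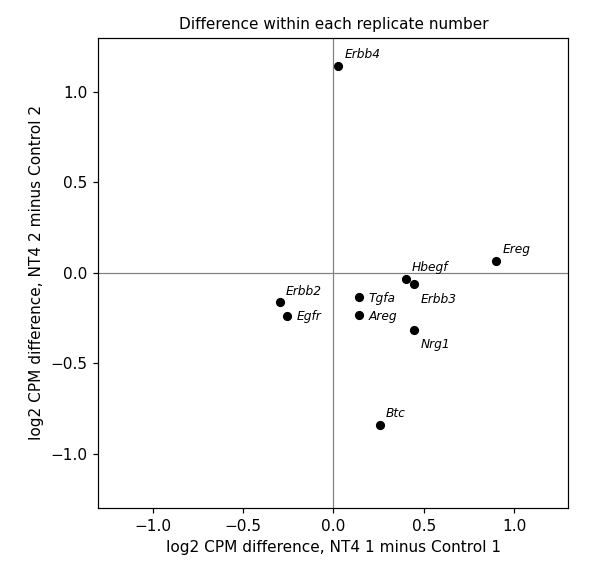
Log2 difference in CPM, NT4 minus Control, within replicate number 1 (x axis) and within replicate number 2 (y axis), with 1 point for each of the 10 genes. Egfr and Erbb2 lie in the lower left, Ereg and Erbb4 in the upper right, and the other genes on opposite sides of 0.

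The next question was which ligands and receptors stood highest in these libraries. The libraries also held transcripts of theca, stroma and oocyte markers, and the cells behind each ligand or receptor were not tested. CPM was divided by the length of all annotated exons of a gene in kilobases (kb), since a longer transcript yields more reads. Among receptors, Erbb2 was highest at a mean of 12.8 CPM per kb over the 4 libraries (11.5 to 14.2), followed by Egfr at 5.68 CPM per kb (5.19 to 6.19). Erbb3 was at 0.584 CPM per kb (0.474 to 0.645), and Erbb4 was at 0.0418 CPM per kb (0.0176 to 0.0558). The ranges of the 4 receptors did not meet. Egfr and Erbb2 together made up 97.5% and 96.8% of the receptor sum in the Control libraries, beside 96.0% and 96.5% in the NT4 libraries. The receptor sum itself was 20.9 and 20.3 CPM per kb in the Control libraries and 17.4 and 17.9 CPM per kb in the NT4 libraries. The share of Erbb2 in that sum was 67.8% and 66.6% in Control and 66.2% and 67.4% in NT4, so the groups overlapped in makeup while both NT4 sums were lower.

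Among the ligands, Tgfa was highest at 4.71 CPM per kb (4.37 to 5.05), with Hbegf next at 3.58 CPM per kb (3.17 to 4.51), and their ranges overlapped. Ereg followed at 2.53 CPM per kb (1.69 to 3.15), apart from its neighbours. Btc at 0.669 CPM per kb and Areg at 0.581 CPM per kb had overlapping ranges, and Nrg1 was lowest of the 6 at 0.262 CPM per kb. Of the family's ligands outside the 6, Nrg2 was at 1.2 CPM per kb, Nrg4 at 0.182 CPM per kb and Egf at 0.0793 CPM per kb. Tgfa and Hbegf together made up 71.0%, 66.4%, 65.5% and 66.8% of the ligand sum in Control 1, Control 2, NT4 1 and NT4 2. Ereg made up 15.4% and 20.6% in the Control libraries and 22.1% and 23.2% in the NT4 libraries. Areg made up 5.23% and 4.83% in Control and 4.45% and 4.41% in NT4. The ligand sum was 11.0 and 12.5 CPM per kb in Control and 14.2 and 11.6 CPM per kb in NT4, and here the groups overlapped.

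The choice of length changed part of this order. With the longest annotated transcript in place of all exons, Erbb2 stayed highest at 13.3 CPM per kb, while Tgfa at 6.75 CPM per kb passed Egfr at 6.3 CPM per kb. The ranges of Tgfa and Egfr, and of Egfr and Hbegf at 5.99 CPM per kb, then overlapped. Ereg, Btc, Erbb3, Areg, Nrg1 and Erbb4 kept their order, but Nrg1 moved up to 0.501 CPM per kb and its range then overlapped that of Areg. Of the family's other ligands, Nrg4 moved up to 0.529 CPM per kb, above Nrg1, and Egf to 0.188 CPM per kb. Nrg2 was at 1.23 CPM per kb.

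**Figure D4:**
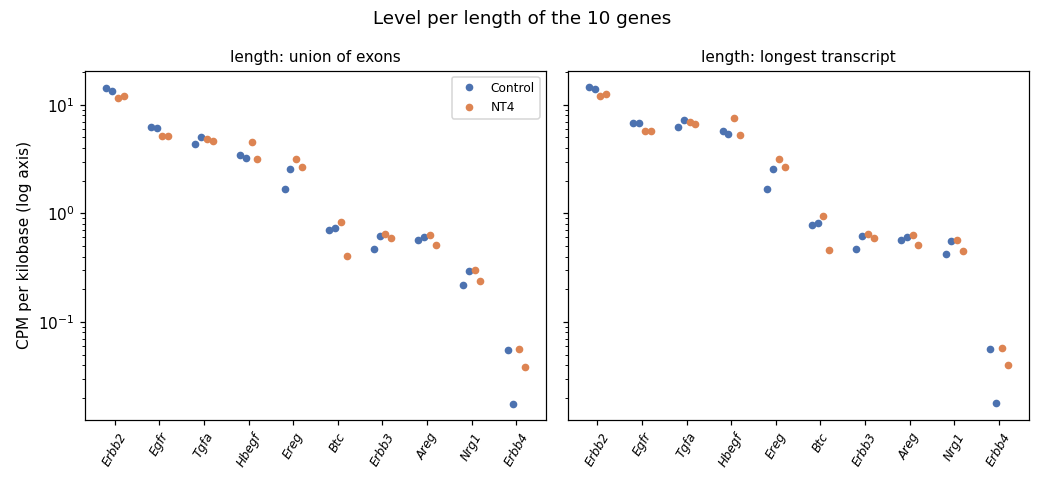
CPM per kb (log axis) of the 10 genes in the 4 libraries (points, blue for Control and orange for NT4), with length taken as all annotated exons (left) or as the longest annotated transcript (right). Genes are in order of their mean by exon length. Erbb2 is highest and Erbb4 lowest in both panels, and Tgfa moves past Egfr on the right.

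Other ligands of the family were looked at from a list of 5 genes, of which 3 were tested. Egf stood at 0.936 CPM in Control 1, 1.25 CPM in Control 2, 0.561 CPM in NT4 1 and 0.830 CPM in NT4 2. Both NT4 libraries were lower, with a log2 fold change of −0.649 (SE 0.457). Nrg2, a neuregulin, was at 3.29 and 3.05 CPM in Control and 4.11 and 4.62 CPM in NT4, which were both higher (log2 fold change 0.462, SE 0.242). Nrg4, a neuregulin that binds ERBB4, was at 0.976 and 1.02 CPM in Control and 1.03 and 1.41 CPM in NT4 (log2 fold change 0.293, SE 0.395), and the value was 0.041 without NT4 2 and 0.497 without NT4 1. Its 49 to 109 counts per library are uncertain, since 368 of its exon bases are shared with Fbxo22 on the other strand, which had 2204 to 4594 counts. None of the 3 passed an unadjusted p of 0.05, against 1.99% of all genes tested. Their median log2 fold change was 0.293, beside 0.004 over all genes, and 0.041 (without NT4 2) to 0.497 (without NT4 1) for the same 3 genes with 1 library left out. Epgn had 19 counts in Control 2 and none in the other libraries. Nrg3 had no count in any of the 4 libraries, so its level was under the 0.152 to 0.242 CPM that a count of 0 allows.

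The release of ligands from the membrane was covered by 6 genes. Of these, 4 had a positive and 2 a negative log2 fold change, with a median of 0.133, and none passed an unadjusted p of 0.05, against 1.99% of all genes tested. With 1 library left out the median ran from 0.011 (NT4 1) to 0.181 (NT4 2). Adam17, the main sheddase of amphiregulin, epiregulin and TGF-alpha, was at 170 and 170 CPM in Control and 160 and 145 CPM in NT4. Both NT4 libraries were lower, and the fitted log2 fold change was −0.154 (SE 0.119), with −0.084 when NT4 2 and −0.236 when NT4 1 was left out. Rhbdf1 and Rhbdf2 encode the iRhom proteins that bring ADAM17 to the cell surface. Rhbdf1 was at 33.9 and 34.0 CPM in Control and 36.6 and 37.1 CPM in NT4, a log2 fold change of 0.118. Rhbdf2 was at 31.7 and 20.7 CPM in Control and 31.3 and 34.1 CPM in NT4, and its groups overlapped. Adam9 was at 51.8 and 64.4 CPM in Control and 70.0 and 65.2 CPM in NT4, with both NT4 libraries higher (log2 fold change 0.219, SE 0.155, but 0.066 without Control 1 and 0.39 without Control 2). Adam10, the main sheddase of betacellulin, had a log2 fold change of −0.011 (SE 0.12), and Timp3, an inhibitor of ADAM17, one of 0.149 (SE 0.275), with overlapping groups in each.

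Downstream of the receptors, 16 adaptor and RAS-RAF-MEK-ERK genes were split into 9 positive and 7 negative log2 fold changes with a median of 0.026, and none passed an unadjusted p of 0.05, against 1.99% of all genes tested. The lowest was Nras, encoding a RAS protein, at 84.0 and 99.7 CPM in Control and 38.8 and 97.8 CPM in NT4. NT4 1 alone was low, and its groups overlapped. Sos2, encoding a RAS exchange factor, was at 42.6 and 39.6 CPM in Control and 37.9 and 32.0 CPM in NT4, with both NT4 libraries lower (log2 fold change −0.235, SE 0.153, with −0.119 without NT4 2 and −0.368 without NT4 1). Map2k1, encoding a MEK kinase, was among the highest, at a log2 fold change of 0.087 (SE 0.123) with overlapping groups. Without Control 1 the 16 genes were split into 5 positive and 11 negative values, and without NT4 2 into 7 and 9. Without Control 2 or without NT4 1 the split was 9 and 7.

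Of 9 genes that restrain ERBB receptors, 4 were positive and 5 negative, with a median of −0.005, no gene past an unadjusted p of 0.05 (1.99% of all genes tested) and no gene whose groups were apart (26.0% of all genes tested). The lowest were Cbl, encoding the ubiquitin ligase of EGFR, at −0.11 (SE 0.127) and Socs5 at −0.075 (SE 0.149). The highest were Errfi1, encoding a feedback inhibitor of ERBB kinases, at 0.052 (SE 0.27) and Rnf41, encoding a ubiquitin ligase of ERBB3, at 0.218 (SE 0.241). Rnf41 was at 38.1 CPM in Control 1 and between 54.0 and 60.5 CPM in the other libraries. The split of the 9 genes changed with 1 library left out. It was 4 positive and 5 negative without Control 1, and 1 and 8 without Control 2. Without NT4 1 it was 2 and 7, and without NT4 2 it was 7 and 2.

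Upstream of ligand induction, all 5 genes of the list had a positive log2 fold change, against 51.0% of all genes tested, with a median of 0.061. With 1 library left out the median was 0.14 (Control 1), 0.4 (Control 2), 0.287 (NT4 1) and 0.268 (NT4 2). The list held 3 positive and 2 negative values without Control 1 or without NT4 2. It held 4 and 1 without Control 2 or without NT4 1. Creb1, encoding the factor CREB, stood at 25.4 CPM in Control 1, 25.7 CPM in Control 2, 53.4 CPM in NT4 1 and 45.2 CPM in NT4 2. Both NT4 libraries were far above both Control libraries. Fitted on the log2 scale, the fold change was 0.947 (SE 0.151), with an unadjusted p of 0.00119 and an adjusted p of 0.817 by the edgeR quasi-likelihood test. In that fit Creb1 did not reach the 2-fold criterion. With 1 library left out its log2 fold change was 0.815 (NT4 1) to 1.06 (NT4 2), the latter beyond 2-fold. Creb1 passed with the DESeq2 Wald test, at an adjusted p of 0.000255, and with the edgeR exact test, at an adjusted p of 0.0165. Over the other alternatives its adjusted p was 0.356 or more. Lhcgr, encoding the LH receptor, was at 55.6 and 64.7 CPM in Control and 72.5 and 73.8 CPM in NT4. Both NT4 libraries were higher, at a log2 fold change of 0.281 (SE 0.134) that was 0.171 without Control 1 and 0.4 without Control 2, and the edgeR quasi-likelihood test gave an adjusted p of 0.9999. Fshr and Pgr, encoding the FSH and progesterone receptors, were at 0.057 (SE 0.24) and 0.045 (SE 0.677) with overlapping groups.

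Genes that respond to EGF-like factors in cumulus and granulosa cells were covered by a list of 10. Of these, 8 were positive and 2 negative, against 51.0% positive over all genes tested, with a median log2 fold change of 0.2. The median was 0.049 without NT4 2 and 0.342 without Control 1. Without NT4 2 the list held 5 positive and 5 negative values. It held 7 and 3 without Control 1 or without NT4 1, and 8 and 2 without Control 2. Cebpb, encoding a transcription factor that acts downstream of ERK in the ovulatory response, was at 54.2 and 56.1 CPM in Control and 86.7 and 82.6 CPM in NT4. Both NT4 libraries were higher, and within groups the libraries were close. In the fit the log2 fold change came to 0.618 (SE 0.118), with an unadjusted p of 0.00272 and an adjusted p of 0.9999 by the edgeR quasi-likelihood test. The DESeq2 Wald test alone called it, at an adjusted p of 0.0198, while the other alternatives gave 0.25 or more. Cebpb shares 20.7% of its exon length with Tmem189 on the other strand, which had counts of 2259 and 3964 in Control and 1573 and 3247 in NT4. The part of Tmem189 reads in the Cebpb values was not tested. Ptx3, a matrix gene of cumulus expansion, was lowest of the list at 0.339 and 0.312 CPM in Control and 0.289 and 0.195 CPM in NT4 (log2 fold change −0.428, SE 0.738), close to the limit of detection. Fos, an early ERK target, was at 840 and 591 CPM in Control and 658 and 1210 CPM in NT4, and its groups overlapped. Nppc, encoding the peptide that holds the oocyte in meiotic arrest, was at −0.011 (SE 0.305).

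**Figure D5:**
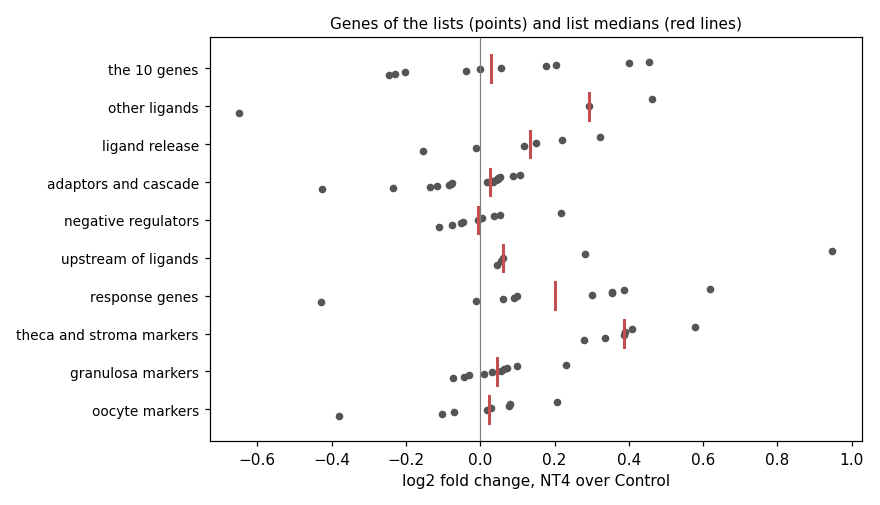
Log2 fold change of NT4 over Control (x axis) for the tested genes of each list (points) with the list median (red lines). The medians of the 10 genes (0.028), the adaptors (0.026) and the negative regulators (−0.005) lie near 0, and the theca and stroma markers all lie to the right, with a median of 0.388.

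Genes whose pattern over the 4 libraries was most like that of 4 of the 10 genes were found by the Euclidean distance between log2 CPM values, each centred on its own mean, among 14334 genes with a mean CPM of at least 1. For Egfr they were Chst1 (0.0264), A530017D24Rik (0.0314) and Tet1 (0.0354). Tet1, encoding a DNA demethylase, was at 30.4 and 30.8 CPM in Control and 25.8 and 26.3 CPM in NT4, so it was lower in both NT4 libraries as Egfr was. For Erbb2 they were Prkca (0.0174), Ifih1 (0.0259) and Acp5 (0.0336). Prkca, encoding protein kinase C alpha, was at 16.1 and 15.5 CPM in Control and 13.3 and 13.9 CPM in NT4. For Ereg they were Arhgef4 (0.0356), Sh3d21 (0.0569) and Scoc (0.0701), and for Areg they were Trim37 (0.0117), Capn15 (0.0196) and Wwc2 (0.0218). A likeness over 4 libraries is a description of these libraries alone.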

How the data were processed

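After trimming with Cutadapt, the authors aligned the reads by HISAT2 (mouse, Ensembl v99) and ran StringTie and ballgown. What they deposited are estimated counts per gene from StringTie, written as whole numbers without normalization. The study's methods describe libraries whose second DNA strand was labelled with dUTP and treated with a UDG enzyme before amplification. Whether the counting then used strand is not stated, so reads of antisense neighbours cannot be told apart. The submitters' processing notes name the build mm10.

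The counts were fitted in R 4.3.3 with the edgeR 4.0.16 quasi-likelihood test (group alone, TMM normalization, default filter, two-sided) and Benjamini-Hochberg adjustment over 19259 genes. CPM were scaled by TMM. The procedure was run on simulated data with the same dispersion for every gene and changes of 2-fold or more in genes with ample counts. That run does not show what the test would find at smaller folds or lower counts. Coordinates and exon lengths came from GENCODE M21 (GRCm38) and promoters from RefSeq (GRCm38.p6, 6 of the 10 genes). Poisson intervals used 4 counts per read pair. Named were the 10 genes, all other ligands and release genes and, in the lists of adaptors, negative regulators, upstream and response genes, the 2 highest and 2 lowest log2 fold changes and any gene past a threshold, of which 1 is not reported here. Cell type markers are given as sums, and those named were picked after their values were seen. The genes and lists were chosen with earlier results of these data known.

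Alternatives were DESeq2 size factors, library totals, no filter, a CPM of at least 1 in 2 libraries, the DESeq2 1.42.0 Wald test, the edgeR exact test, the replicate number as a block, counts divided by 4, each library left out, a fold of 1.5, an adjusted p of 0.1 and another gene length.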

Additional observations from a re-analysis of the deposited data

How the results depend on the processing

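Under 12 alternative fits, none of the 10 genes passed an adjusted p of 0.05 or the criterion with a fold of 2, and the smallest adjusted p of any of them was 0.91. None passed an adjusted p of 0.1 or the criterion with a fold of 1.5 in the fit reported. The filter at a CPM of 1 left out Areg and Erbb4, so these gave no value there. Over all genes, the count at an adjusted p of 0.05 was 0 in the fit reported, 10 with no filter, 65 with the DESeq2 Wald test, 59 with the edgeR exact test and with a library left out 12 (Control 1) or 37 (Control 2). By the criterion of fold and p there were 208 genes in the fit reported, 87 with the filter at a CPM of 1, 345 with no filter, 312 with the exact test, 119 with counts divided by 4 and 341 to 512 with 1 library left out. Of 118 values of the 10 genes, 107 kept their direction and 11 reversed, of which 1 with all 4 libraries, Tgfa at 0.003 with the replicate block. Pgr was at −0.004 with counts divided by 4. Over the genes tested in the fit reported, list medians with 1 library left out were −0.021 to 0.057 for the adaptors, −0.077 to 0.015 for the negative regulators and 0.285 to 0.381 for the theca and stroma markers. With no filter the list of other ligands gained an untested gene and its median was −0.181, while that of its 3 tested genes was 0.29.

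With 1 library left out, log2 fold changes ranged from −0.206 to 0.105 for Areg, −0.817 to 0.227 for Btc, −0.079 to 0.437 for Hbegf, −0.105 to 0.112 for Tgfa, −0.14 to 0.289 for Nrg1, −0.009 to 0.394 for Erbb3 and −0.209 to 1.417 for Erbb4. Ereg kept its direction at 0.179 to 0.797, Egfr at −0.252 to −0.241 and Erbb2 at −0.263 to −0.2. Other reversals were Adam10 (−0.099 to 0.064), Timp3 (−0.292 to 0.482), Nras (−1.245 to 0.084), Errfi1 (−0.402 to 0.393), Rnf41 (−0.08 to 0.592), Socs5 (−0.163 to 0.000485), Fshr (−0.267 to 0.313), Pgr (−0.662 to 1.102), Fos (−0.122 to 0.757) and Nppc (−0.515 to 0.353). Without a reversal, Egf ran from −0.961 to −0.404, Rhbdf2 from 0.051 to 0.654, Map2k1 from 0.006 to 0.173, Cbl from −0.196 to −0.018 and Ptx3 from −0.741 to −0.171. A lone library in an arm was assumed to vary like the others, and the cause of each reversal was not tested.

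Libraries of a group came from independent experiments and the study's cultures ran in parallel, but no source says that a number marks an experiment. Deviations of same-numbered libraries correlated at 0.14 across 19259 genes. With the replicate block the log2 fold change was −0.245 for Egfr (unadjusted p 0.0529, adjusted p 1.0 by the edgeR quasi-likelihood test), −0.23 for Erbb2 and 0.479 for Ereg, and 0 of the 10 genes passed. Depth limits Areg and Erbb4 most, at 4 to 14 read pairs per library.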
